A study of Homo sapiens with 6 samples.

Results

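Antisense transcripts are RNAs made from the DNA strand opposite to a gene, and by convention each carries the name of that gene with the suffix AS and a number. The 32 described here are the gene rows of the count table whose symbol ends in that suffix and whose reads, summed over all 6 libraries, numbered at least 30. They were thus chosen by name and selected on their measured read sum, which is not tested here. They came from 149 rows with such a name among 23368 gene rows. H1FX-AS1 was set apart before the members were counted because it is a called gene of this comparison, so the number of called members says nothing about antisense transcripts in general. The libraries came from 1205Lu cells, an established line of metastatic melanoma, transiently transfected with the SOX10 expression plasmid pCMV6-SOX10 (3 libraries) or with the control plasmid pCMV6 (3 libraries). All flasks received 7.8 µg of plasmid with the same transfection reagent and were harvested after 24 h. The replicates are biological according to the study's design text, of a single cell line. In RNA from whole flasks, fewer cells with a transcript and less of it per cell cannot be told apart.

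Many antisense transcripts begin beside a protein-coding gene and run away from it, so that both are made from one shared promoter region in opposite directions. Others start inside or behind the gene they are named for and overlap it. Some regulate their neighbour, some act elsewhere as long noncoding RNAs, and some mainly carry small nucleolar RNAs, which guide the modification of ribosomal RNA, in their introns.

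Most of these transcripts started beside a coding gene, though often not the one in their name. By symbol or older symbol, 30 of the 32 matched 1 noncoding RefSeq gene and 1 GENCODE release 29 gene (build GRCh38). MAFG-AS1 had 2 candidates and HNRNPU-AS1 was listed only as an older name of HNRNPU itself. GENCODE calls 18 of the 30 antisense, 8 processed transcripts, 3 lincRNAs and 1 a transcribed unitary pseudogene. In all 28 pairs with both genes annotated they lay on opposite strands. In 26 of the 30 the nearest start of a coding gene on the opposite strand was within 1000 bases. That gene was the namesake for 17 of them, at 7 to 402 bases in GENCODE. For the other 9 it was a different gene. FGD5-AS1 starts 77 bases from NR2C2, a nuclear receptor, NOP14-AS1 40 bases from MFSD10, a membrane transporter family gene, BDNF-AS1 65 bases from LIN7C, a cell polarity scaffold, and GCFC1-AS1 67 bases from SYNJ1, a phosphoinositide phosphatase. MCM3AP-AS1 starts 393 bases from LSS, an enzyme of sterol synthesis, TTC28-AS1 70 bases from PITPNB, a phospholipid transfer protein, and TRAF3IP2-AS1 50 bases from REV3L, a DNA polymerase subunit. HOXD-AS1 and HOXA-AS5, which are named for clusters, each start 12 bases from a homeobox gene, HOXD1 and HOXA11. C17orf76-AS1, EPB41L4A-AS1, OIP5-AS1 and HLA-F-AS1 had no opposite coding start this close.

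The start regions of the 4 most abundant members are shown because they hold most of the reads and illustrate the shared and the separate promoter. They are from the RefSeq promoter table (GRCh38.p14), 5′ to 3′ on the antisense gene's strand. Capitals mark the first 50 bases from the annotated start. Where the coding gene's own RefSeq start lies in the window, the stretch begins just beyond it.
HOXD-AS1 (listed as HAGLR, chr2:176188523-176188667, minus strand): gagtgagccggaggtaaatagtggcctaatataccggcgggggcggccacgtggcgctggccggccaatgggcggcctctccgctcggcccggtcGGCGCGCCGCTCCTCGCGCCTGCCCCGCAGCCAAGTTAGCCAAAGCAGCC
FGD5-AS1 (chr3:14947456-14947582, minus strand): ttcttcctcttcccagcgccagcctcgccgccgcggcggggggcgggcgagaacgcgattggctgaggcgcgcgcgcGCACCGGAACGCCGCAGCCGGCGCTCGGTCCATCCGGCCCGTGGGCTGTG
ZNFX1-AS1 (listed as ZFAS1, chr20:49278392-49278691, plus strand): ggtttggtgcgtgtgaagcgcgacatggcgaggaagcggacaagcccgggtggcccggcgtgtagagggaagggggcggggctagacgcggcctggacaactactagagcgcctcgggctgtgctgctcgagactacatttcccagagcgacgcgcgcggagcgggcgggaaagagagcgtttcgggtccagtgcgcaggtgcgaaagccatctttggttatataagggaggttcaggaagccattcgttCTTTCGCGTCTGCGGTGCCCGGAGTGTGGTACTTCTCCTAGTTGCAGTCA
C17orf76-AS1 (listed as SNHG29, chr17:16438737-16439036, plus strand): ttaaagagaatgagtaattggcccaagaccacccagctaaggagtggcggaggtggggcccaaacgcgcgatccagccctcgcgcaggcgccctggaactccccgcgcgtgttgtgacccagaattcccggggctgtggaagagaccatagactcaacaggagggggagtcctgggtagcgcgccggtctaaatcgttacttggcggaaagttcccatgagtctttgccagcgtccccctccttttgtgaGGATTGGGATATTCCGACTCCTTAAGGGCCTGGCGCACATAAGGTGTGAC
In these RefSeq models 96 bases separate the HOXD-AS1 start from that of HOXD1, and 78 bases separate FGD5-AS1 from NR2C2. Starts differ between annotations, since ZNFX1-AS1 lies 585 bases from ZNFX1 in these models and 41 bases from it in GENCODE. The start of ZNFX1-AS1 opens with a C and a run of pyrimidines, in the manner of transcripts of the protein synthesis machinery. It was the only one of 35 windows of the 26 members in the table with a C followed by at least 4 pyrimidines, against 4.07% of all 35116 windows. CG dinucleotides were dense, with a median of 27 per window of 300 bases against 14 over all windows. The SOX core motifs ACAAAG or ACAATG, on either strand, occurred in 6 of the 35 windows (17.1%) and in 24.5% of all windows, and in none of the 4 stretches printed. A match or its absence describes these letters only.

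Depth limits what can be said of most members. Reads assigned to genes ranged from 867917 to 4167393 per library, every SOX10 library was deeper than every control library, and 73.02% of all assigned reads were in the SOX10 libraries, so that the threshold on summed reads weighs these more. In SOX10 replicate 1 and control replicate 3 there were 93.5 and 97.0 reads outside genes per 100 assigned, against 121 to 135 in the others. SOX10 itself was counted at 21.7, 18.7 and 34.6 CPM with SOX10 and 16.6, 20.8 and 21.5 in the controls (adjusted p by edgeR 0.927), and the groups overlapped, so this row did not separate the groups named in the labels. PMP2, a myelin lipid-binding protein gene, did, with 66, 53 and 103 reads against 0, 1 and 4 (adjusted p by edgeR 0.000103). CPM is the read count relative to the library's total over the tested genes, which hold 99.0% to 99.2% of its assigned reads, scaled by edgeR's TMM factors. Of 12 melanoma and melanocyte markers, S100B, S100A1 and ERBB3 stood at 271 CPM or more in every library and MITF between 4.12 and 8.78. GPR143 had 0 reads and the pigment genes MLANA, TYR, DCT and TYRP1 at most 9 each. Keratinocyte, leukocyte and endothelial markers summed to between 0.975 and 18.5 CPM per list and library.

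The 4 most abundant antisense transcripts held 70.9% of the 7730 reads of all members. FGD5-AS1 had 1724 reads, C17orf76-AS1 1574, ZNFX1-AS1 1206 and HOXD-AS1 975, and 18 of the 32 members had under 60. The 2 members closest to the threshold, GCFC1-AS1 and TTC28-AS1, had 31 reads each, and FAM13A-AS1 with 27 was the nearest row below it. Per kilobase of exon the order changed. ZNFX1-AS1 was highest at 86.5 CPM per kilobase, followed by C17orf76-AS1 at 45.7, FGD5-AS1 at 27.3, MAGI2-AS3 at 17.5 and HOXD-AS1 at 12.8. Exon lengths are those of GENCODE release 29, not of the annotation the reads were counted on. They cover only transcripts linked to RefSeq, or all transcripts for PAN3-AS1 and PROX1-AS1, which had none linked. Over all transcripts the exon bases are 11625 instead of 1456 for MAGI2-AS3 and 2243 instead of 1030 for ZNFX1-AS1. Values per kilobase, and with them the order, depend on this choice. Summed over all members, the level was 518, 544 and 580 CPM with SOX10 and 578, 517 and 521 CPM in the controls. The groups thus overlapped in the total output of these transcripts.

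**Figure D1:**
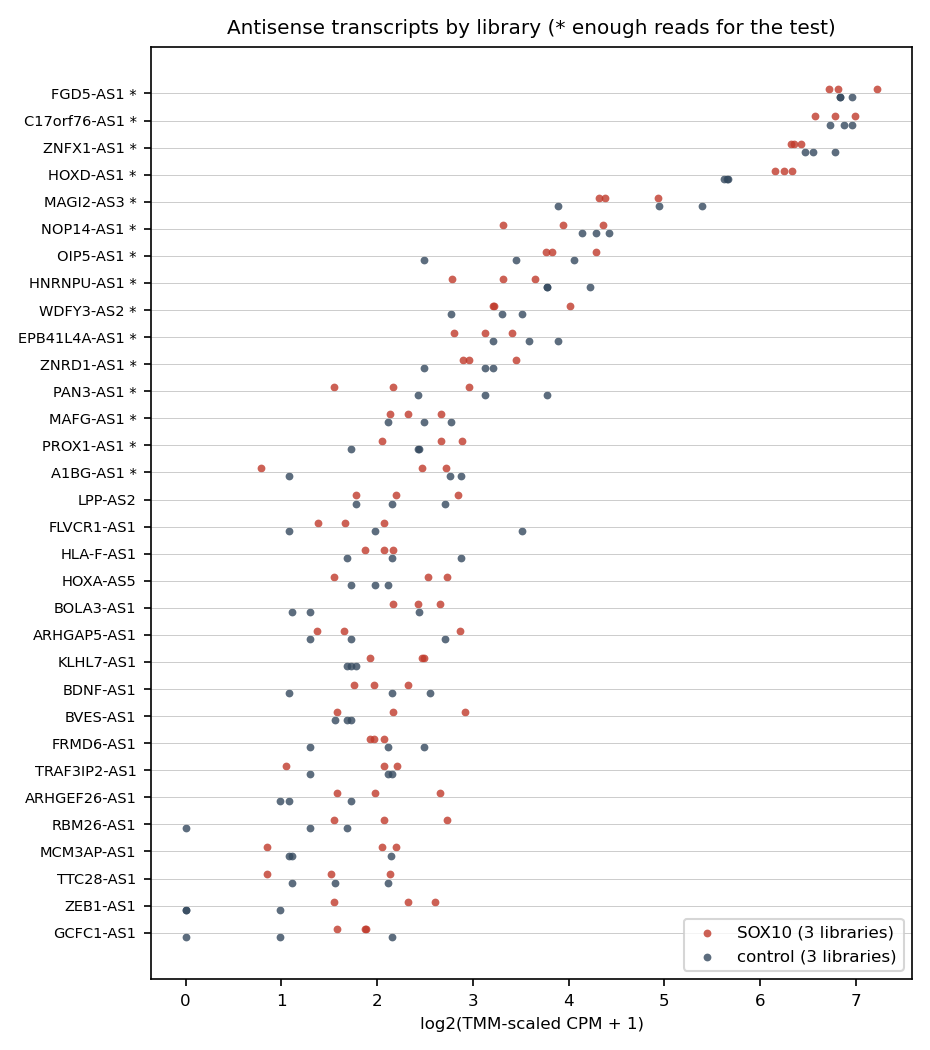
Level of each of the 32 antisense transcripts in the 6 libraries, as log2(TMM-scaled CPM + 1), ordered by mean level, with 1 point per library and an asterisk for the 15 with enough reads for the test. The 4 most abundant members stand apart from the rest, and HOXD-AS1 is the one among them whose SOX10 libraries lie above its controls.

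With H1FX-AS1 set apart, none of the members passed the test between the groups. Enough reads for the test were found in 15 of the 32, and edgeR's quasi-likelihood test called 0 of them higher and 0 lower at an adjusted p under 0.05, where 0.112% of all 10678 tested genes were called, 0.00937% higher and 0.103% lower. At an unadjusted p under 0.05 there was 1 of 15, HOXD-AS1, which was higher, beside 6.23% of all tested genes (2.71% higher and 3.52% lower). DESeq2 called 0 of the 11 members to which it gave an adjusted p and limma-voom 0 of 15, beside 0.112% and 0.0749% of all genes, and they had 1 and 2 of the 15 at an unadjusted p under 0.05, beside 2.86% and 6.02% of all genes. With the replicate number as a block, edgeR called 0 members and 0.0656% of all genes. Groups did not overlap in 3 of the 15, 1 higher and 2 lower, against 11.8% of all tested genes, 5.72% higher and 6.03% lower. The median log2 fold change of the 15 was -0.19, against 0.0076 over all tested genes, with a range from -0.97 to 0.61. The direction of this median depends on which members are included. Without the low-count filter, when all 32 were fitted, it was 0.13, against 0.051 over all rows fitted. In that fit 0 members were called beside 0.234% of all rows, and 2, HOXD-AS1 and ZEB1-AS1, had an unadjusted p under 0.05 beside 4.96% of all rows. A transcript passed the filter by reaching a minimum in 3 libraries, so one that is high in a single group could pass through that group.

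HOXD-AS1, the long noncoding RNA of the HOXD homeobox cluster whose promoter is shown above, stood at 75.2, 70.2 and 79.9 CPM in the SOX10 libraries and at 49.8, 48.4 and 49.2 CPM in the controls. All SOX10 libraries lay above all controls, and the controls differed little among themselves. The mean was 75.1 ± 4.87 against 49.1 ± 0.66 CPM (SD, n = 3 each), a 1.53-fold difference with a 95% confidence interval from 1.23 to 1.91. The log2 FC (fold change, SOX10 against control) was 0.61 (SE 0.15), and its adjusted p by edgeR was 0.215, so it did not pass over all genes. SOX10 replicate 1 and control replicate 3, the libraries with few reads outside genes, had 75.2 and 49.2 CPM, and among the other 4 libraries the values were 70.2 and 79.9 CPM with SOX10 and 49.8 and 48.4 CPM in the controls. Over all alternatives run its estimate stayed between 0.54 and 0.66 and its adjusted p between 0.0627 and 0.971.

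HOXD1, the homeobox gene across the shared start, had 10.7, 7.58 and 12.4 CPM with SOX10 and 2.21, 6.92 and 7.31 in the controls. Its lowest SOX10 library was just above its highest control. It had a log2 FC of 0.82 (SE 0.42) on 110 against 23 reads (adjusted p by edgeR 0.836). Of the 9 numbered HOXD rows, given after the values of HOXD-AS1 were seen, 5 had enough reads. A positive estimate was found in 4 of these 5, and in 5481 of all 10678 tested genes. HOXD8 alone had an unadjusted p by edgeR under 0.05, beside 2.71% of all tested genes that were higher at this level. HOXD8 stood at 8.91 ± 2.15 against 3.94 ± 0.65 CPM (SD, n = 3 each), or a log2 FC of 1.19 (SE 0.45, edgeR adjusted p 0.648). HOXD4 and HOXD13 had 0.35 (SE 0.43) and 0.32 (SE 0.25), and HOXD3 had -0.25 (SE 0.35). At the antisense transcript HOXA-AS5, which starts beside HOXA11, the levels were 5.62, 4.79 and 1.94 against 3.32, 2.31 and 2.93 CPM, and the groups overlapped.

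**Figure D2:**
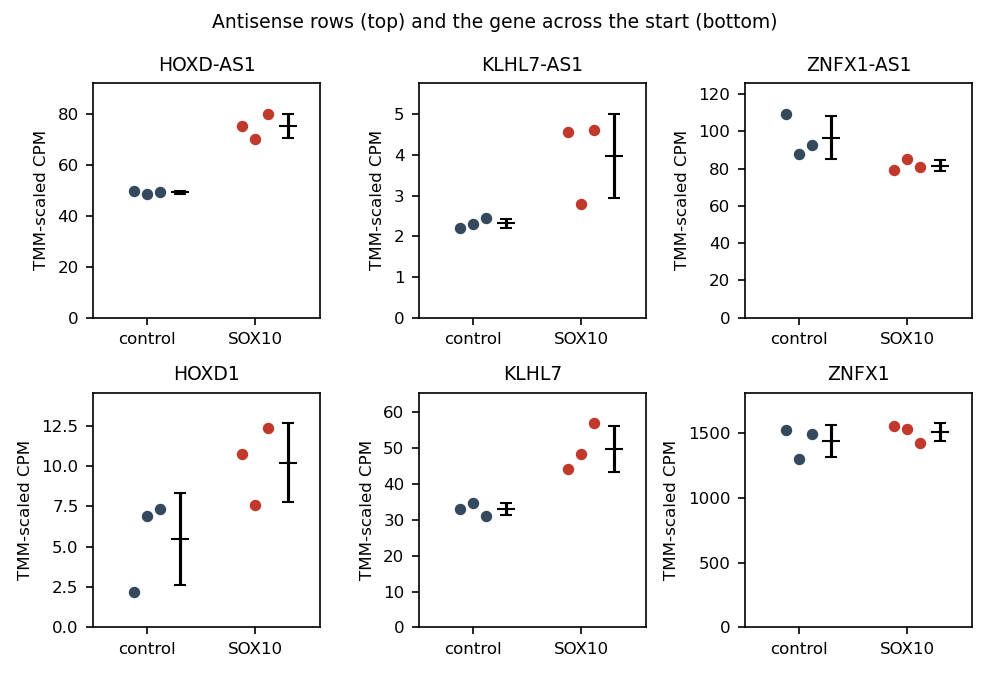
TMM-scaled CPM per library of 3 antisense transcripts (top) and the coding gene at their start (bottom), with 1 point per library and, beside each group, the mean with the SD of 3 libraries. HOXD-AS1, HOXD1, KLHL7-AS1 and KLHL7 lie higher in every SOX10 library, ZNFX1-AS1 lies lower, and ZNFX1 overlaps.

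Among the members known as hosts of small nucleolar RNAs, ZNFX1-AS1 and C17orf76-AS1 were abundant, EPB41L4A-AS1 was not, and none passed the test. ZNFX1-AS1 was at 79.0, 85.0 and 80.7 CPM with SOX10 and 109, 87.7 and 92.6 in the controls. All SOX10 libraries lay below all controls, by a narrow margin at the closest. Its log2 FC was -0.24 (SE 0.14, edgeR adjusted p 0.877), and the 95% confidence interval of the fold ran from 0.70 to 1.03. Without control replicate 1 the log2 FC was -0.15. Its sense gene ZNFX1, a helicase of antiviral RNA sensing, was far more abundant at 1504 ± 69.9 against 1439 ± 121 CPM (SD, n = 3 each), with 0.06 (SE 0.09). Per 100 sense reads there were 5.08, 5.54 and 5.66 antisense reads with SOX10 and 7.18, 6.74 and 6.21 in the controls. This is 1 of 29 pairs, and the ratio was not tested. C17orf76-AS1 had 94.5, 109 and 126 against 124, 116 and 105 CPM, with log2 FC -0.05 (SE 0.14) and overlapping groups. EPB41L4A-AS1, which lies wholly inside its sense gene, had 9.64, 5.98 and 7.75 against 11.1, 13.8 and 8.29 CPM and a log2 FC of -0.42 (SE 0.38). Leaving out control replicate 2 gave -0.24, and leaving out control replicate 3 gave -0.65. EPB41L4A itself, a cytoskeletal linker gene, had 23, 12 and 17 reads against 2, 0 and 5, too few for the test, with groups that did not overlap. Of the annotated exon bases of EPB41L4A-AS1, 49.6% are shared with exons of EPB41L4A, the largest share of any pair. The sources used here do not say whether strand was used in counting. Reads of opposite strands may not have been separated, and all pairs with shared bases are uncertain to that extent. Such bases were found in 21 of 28 pairs, with a median share of 4.82% of the antisense exons.

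FGD5-AS1 was the most abundant member by reads and showed no group difference beyond the spread between libraries. It stood at 104, 111 and 149 CPM with SOX10 and 124, 113 and 113 CPM in the controls, or a log2 FC of 0.07 (SE 0.14, edgeR adjusted p 0.968). The 95% confidence interval of its fold ran from 0.85 to 1.28. Its namesake FGD5, an exchange factor of endothelial cells, had 17 reads in all libraries together. For NR2C2, the gene at its start, the means were 73.7 ± 14.2 and 90.8 ± 14.1 CPM (SD, n = 3 each), a log2 FC of -0.31 (SE 0.16). The 9 coding genes at the start of antisense transcripts with another name, chosen after their annotation was seen, had adjusted p-values by edgeR from 0.732 upward, with 0 higher and 2 lower at an unadjusted p under 0.05, beside 2.71% and 3.52% of all tested genes. MFSD10 had 8.84, 13.2 and 12.1 against 14.4, 27.7 and 16.1 CPM, with no overlap and -0.74 (SE 0.31). Of the 9 genes, PITPNB (lower) and HOXD1 (higher) also had groups that did not overlap, as did 11.8% of all tested genes. SYNJ1 had -0.58 (SE 0.25) and overlapping groups. NOP14-AS1, which starts beside MFSD10, had 19.5, 14.4 and 8.96 against 16.6, 18.5 and 20.5 CPM and a log2 FC of -0.40 (SE 0.31), which was -0.13 without SOX10 replicate 3 and -0.73 without SOX10 replicate 1. Its namesake NOP14, a factor of small ribosomal subunit assembly, had -0.10 (SE 0.16).

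Among the members of medium level, the estimates spread widely and the groups mostly overlapped. HNRNPU-AS1 had 5.89, 11.6 and 8.96 CPM with SOX10 and 17.7, 12.7 and 12.7 in the controls. All SOX10 libraries lay below the controls, and the log2 FC was -0.70 (SE 0.35, edgeR adjusted p 0.830). HNRNPU, an abundant nuclear RNA-binding protein, was at 1034 ± 42.2 against 1045 ± 65.3 CPM (SD, n = 3 each), and the antisense row held 0.963 reads per 100 of its reads. PAN3-AS1 had the lowest estimate, -0.97 (SE 0.54), on 3.48, 6.78 and 1.94 against 7.74, 12.7 and 4.39 CPM, with overlapping groups. It was -0.54 without control replicate 2, -0.60 without SOX10 replicate 3 and -1.48 without SOX10 replicate 2. PAN3, a subunit of the poly(A) tail deadenylase, had -0.22 (SE 0.17). MAGI2-AS3 had 19.8, 29.5 and 18.9 CPM with SOX10 and 40.9, 13.8 and 29.7 CPM in the controls, which held both its highest and its lowest value. Its log2 FC was -0.35 (SE 0.28), and that of MAGI2, a junctional scaffold, -0.18 (SE 0.37). That of MAGI2-AS3 was -0.08 without control replicate 1, -0.23 without SOX10 replicate 3, -0.56 without SOX10 replicate 2 and -0.61 without control replicate 2. OIP5-AS1 had 18.5, 13.2 and 12.6 against 9.95, 4.61 and 15.6 CPM, with 0.40 (SE 0.35). Within each group its level was highest in the library with the fewest reads outside genes, SOX10 replicate 1 and control replicate 3. With reads outside genes as a covariate the log2 FC of OIP5-AS1 was 0.39, and without both libraries 0.80. Beyond these runs the part of this in the result was not tested. The estimate was 0.14 without control replicate 2, 0.20 without SOX10 replicate 1 and 1.01 without control replicate 3. OIP5, a centromere protein, had 14 reads in all. The other 5 tested members, WDFY3-AS2, PROX1-AS1, ZNRD1-AS1, MAFG-AS1 and A1BG-AS1, had log2 fold changes from -0.48 to 0.39 with overlapping groups. A1BG-AS1 showed how far single libraries can lie apart, at 4.55, 5.58 and 0.73 against 1.11, 5.77 and 6.34 CPM. WDFY3-AS2, which begins beside the gene of an autophagy adaptor, had 8.30, 15.2 and 8.24 against 8.85, 10.4 and 5.85 CPM.

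**Figure D3:**
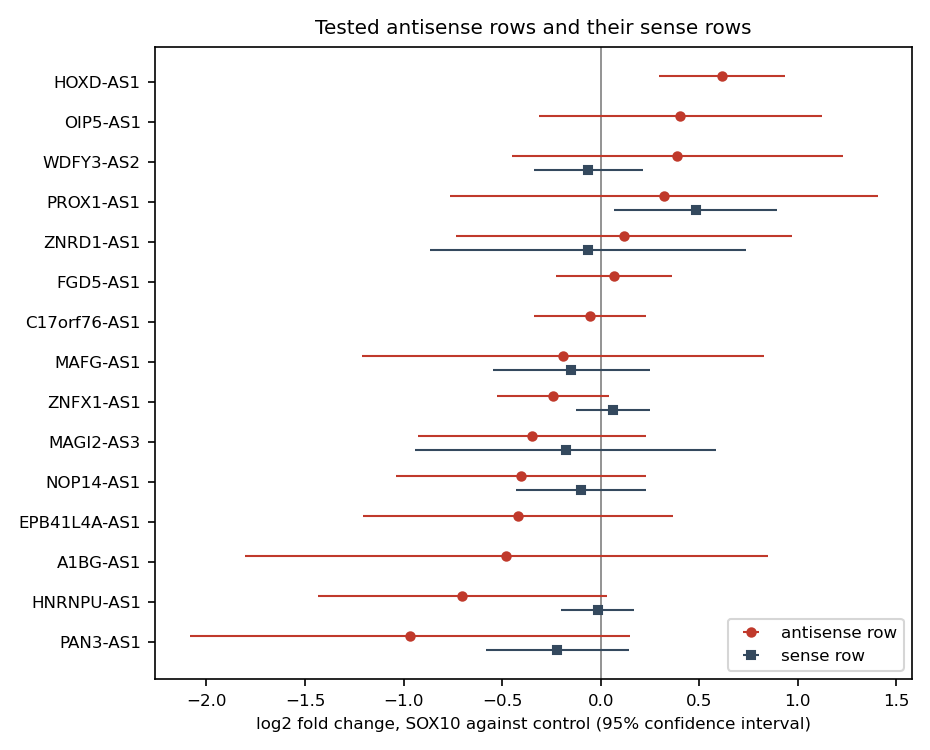
Log2 fold change, SOX10 against control, of the 15 tested antisense rows (circles) and of their sense rows where tested (squares), with 95% confidence intervals. Only the interval of HOXD-AS1 excludes 0 among the antisense rows and only that of PROX1 among the sense rows drawn, and neither passed over all genes.

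The 17 members below the filter had 31 to 55 reads each and at most 10.4 CPM in any library. KLHL7-AS1 and ZEB1-AS1 were the 2 whose groups did not overlap, both higher with SOX10 and named after their values were seen. Of all rows of at least 30 reads without a test, 11.3% did not overlap, 7.3% higher and 4.05% lower. KLHL7-AS1 had 4.55, 2.79 and 4.60 CPM with SOX10 and 2.21, 2.31 and 2.44 in the controls, on 17, 7 and 19 against 2, 2 and 5 reads. KLHL7, a substrate adaptor of a cullin ubiquitin ligase whose start lies 55 bases away, was also higher in all SOX10 libraries, at 44.2, 48.3 and 56.9 against 33.2, 34.6 and 31.2 CPM. Its log2 FC was 0.61 (SE 0.19), and its adjusted p by edgeR, 0.418, was the smallest of the sense genes. No exon base of this pair is shared in GENCODE.

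In the other 15 members below the filter the groups overlapped, and the examples given here were chosen after their values were seen. BVES-AS1 had 3.48, 1.99 and 6.54 against 2.21, 2.31 and 1.95 CPM, so that a single SOX10 library reached into the control range. ARHGEF26-AS1 had 2.95, 1.99 and 5.33 against 1.11, 2.31 and 0.975 CPM, and RBM26-AS1 had 5.62, 3.19 and 1.94 against 2.21, 0 and 1.46 CPM. Each of these rested on at most 8 control reads in all. The highest single value of the 17, the 10.4 CPM of FLVCR1-AS1 in control replicate 2, was 9 reads, beside 1.11 and 2.93 CPM in the other controls and 1.61, 3.19 and 2.18 CPM with SOX10. FRMD6-AS1, whose annotated exons lie wholly in introns of FRMD6, had 3.21, 2.79 and 2.91 against 3.32, 4.61 and 1.46 CPM.

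ZEB1-AS1, which starts 63 bases from the gene of ZEB1, a transcription factor of epithelial-mesenchymal transition, had 19, 10 and 8 reads with SOX10 and 0, 0 and 2 in the controls. These were 5.09, 3.99 and 1.94 CPM against 0, 0 and 0.975. In control replicates 1 and 2 a count of 0 allows up to 3.32 and 3.46 CPM, which lies within the SOX10 range. Taken singly, neither of these libraries could show a difference at this depth. Fitted over all libraries without the low-count filter, ZEB1-AS1 had an unadjusted p by edgeR of 0.00522 and an adjusted p of 0.536. ZEB1 did not follow it, at 178 ± 19.6 against 180 ± 12.7 CPM (SD, n = 3 each) and a log2 FC of -0.018 (SE 0.12). Without the filter 14 of these 17 rare members had a positive estimate, with a median of 0.35, against 0.092 over the 1209 rows of 30 to 55 reads. The threshold on summed reads, most of which lie in the SOX10 libraries, admits rare rows that are high there more readily. These 17 are thus a selected set, and the 1209 rows were also taken by their summed reads. The part of this selection in the estimates was not tested.

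No sense gene passed the test either, and their estimates spread less than those of the antisense transcripts. Rows under the symbol before the suffix were in the table for 29 of the 32, and 25 had enough reads. C17orf76 was in it only under another symbol, FAM211A, with 5 reads in all, and is not among the 29. EdgeR called 0 of the 25, beside 0.112% of all tested genes. At an unadjusted p under 0.05 it had 2 higher and 0 lower, a share over both directions near the 6.23% of all tested genes (2.71% higher and 3.52% lower). DESeq2 and limma-voom called 0, with 1 and 2 at an unadjusted p under 0.05 beside 2.86% and 6.02% of all genes. The median log2 fold change was -0.018, against 0.0076 over all tested genes. The 2 were KLHL7 and PROX1, the homeobox regulator of lymphatic endothelium. PROX1 stood at 42.6, 39.5 and 54.3 against 28.7, 34.6 and 34.1 CPM with no overlap and a log2 FC of 0.48 (SE 0.20, edgeR adjusted p 0.694). Its antisense transcript PROX1-AS1 had 5.36, 6.38 and 3.15 against 4.42, 2.31 and 4.39 CPM, with 0.32 (SE 0.52). HLA-F, a nonclassical class I antigen gene, had the third smallest p, at a log2 FC of -0.41 (SE 0.23, edgeR adjusted p 0.871). Its levels of 145, 102 and 66.1 against 145, 75.0 and 182 CPM were highest in SOX10 replicate 1 and control replicate 3 within their groups, the libraries with few reads outside genes. With reads outside genes as a covariate the log2 FC of HLA-F was -0.53 (edgeR adjusted p 0.116), and without both libraries -0.42. Beyond these runs the part of this in the result was not tested. The HLA-F estimate was -0.08 without control replicate 3, -0.16 without SOX10 replicate 3, -0.67 without control replicate 2 and -0.75 without SOX10 replicate 1. Groups did not overlap in 3 of the 25 sense genes, KLHL7, PROX1 and MCM3AP, all higher with SOX10. Of all tested genes 11.8% did not overlap, 5.72% higher and 6.03% lower. In the 9 pairs with both rows tested, 6 had the same sign, Pearson's r across pairs was 0.54, and both rows of a pair share their libraries. The SD of the log2 fold change over these pairs was 0.45 for antisense and 0.21 for sense rows, and the antisense rows rested on fewer reads, with a median SE of 0.35 against 0.18 over all tested members of each kind.

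Antisense transcripts were mostly the minor partner of their pair. The median was 9.09 antisense reads per 100 sense reads over 29 pairs. C17orf76-AS1, with 1574 reads against 5 of FAM211A, is outside these pairs. Per kilobase of exon, the antisense level was above that of the sense gene in 5 of 27 pairs and under 10% of it in 10, with a median of 19.5%. These ratios use the lengths over RefSeq-linked transcripts described above and depend on that choice. The 5 were FGD5-AS1, MAGI2-AS3, EPB41L4A-AS1, A1BG-AS1 and OIP5-AS1, whose sense genes had between 14 and 151 reads in all. At the other end, GCFC1-AS1 reached 1.98% of its sense gene and HLA-F-AS1 2.82%.

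**Figure D4:**
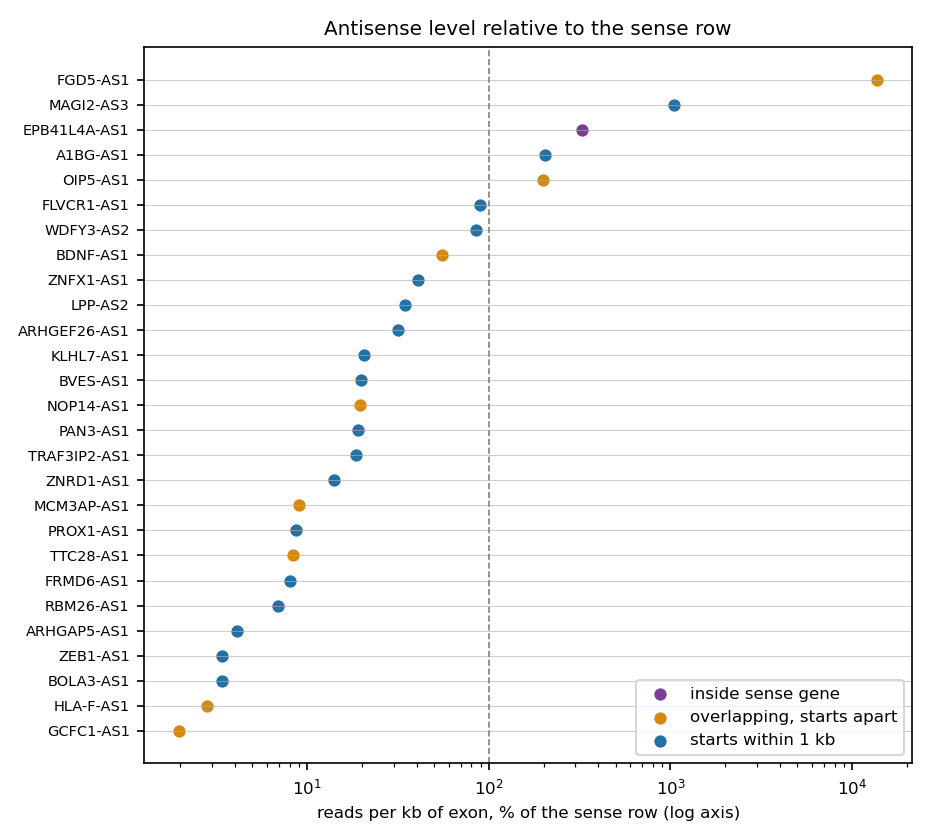
Reads per kilobase of exon of each antisense row as a percentage of its sense row, summed over the 6 libraries, on a log axis, coloured by how the pair is arranged in GENCODE release 29, with a dashed line at equal level. The 5 pairs to the right of the line are led by FGD5-AS1, and all arrangements occur on both sides of it except the single transcript inside its sense gene.

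Other noncoding rows are given from the same fit to place these values. The 16 tested intergenic rows named LINC had a median log2 FC of -0.086, with 3 lower and 0 higher at an unadjusted p under 0.05 by edgeR, where 3.52% of all tested genes were lower and 2.71% higher. The 8 tested small nucleolar RNA host genes named SNHG had a median of -0.22, with 1 lower. The 6 tested rows named for introns or overlaps of a host gene had a median of 0.036, with 1 lower. H1FX-AS1, the antisense row set apart, fell from 34.3, 36.9 and 26.3 CPM in the controls to 8.30, 8.78 and 10.2 CPM with SOX10 (log2 FC -1.79, SE 0.26, edgeR adjusted p 0.00149). H1FX, the histone gene it is named for, had -0.56 (SE 0.37, edgeR adjusted p 0.913). Among the 15 tested members the lowest estimate was the -0.97 of PAN3-AS1.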

How the data were processed

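Total RNA was sequenced from 3 SOX10 and 3 control flasks. The authors deposited raw read counts, 1 whole number per gene symbol and library. TopHat 1.4.0, HTSeq, DESeq and build hg19 are named in the submitters' processing notes. The annotation, strand setting and overlap mode are not given in those notes or the labels. Class rows of the counting, which name no gene, were left out of totals and tests, and reads outside genes stood at 93.5 to 135 per 100 assigned reads. A count of 0 allows 3 reads, for counting error only.

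All 23368 gene rows entered edgeR 4.0.16 (R 4.3.3, quasi-likelihood test, TMM, filterByExpr with minimum count 10 and minimum total 15, no covariate), with Benjamini-Hochberg adjustment over 10678 tested genes and a threshold of 0.05. Fold changes are SOX10 against control. Standard errors come from the F statistic. Replicates were distinct libraries (chi-square per degree of freedom 1.98 to 7.44 between pairs of a group). The code was tested on simulated data. DESeq2 1.42.0 and limma-voom (limma 3.58.1) were alternatives, beside other scalings, filters, the replicate number as a block, reads outside genes as a covariate, thinning and libraries left out.

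Members and lists were chosen with earlier results of these data known. Named antisense rows are the 8 tested with the highest level, the 8 with the smallest p and those whose groups did not overlap, with their sense rows and the 3 sense rows of smallest p. Others were added after their values were seen. GENCODE and RefSeq coordinates are of GRCh38, not hg19, and served for names, arrangement, lengths and sequences only.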

Additional observations from a re-analysis of the deposited data

How the results depend on the processing

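In every alternative run, 0 members, with H1FX-AS1 set apart, and 0 of their sense genes were called. The 12 calls over all genes became 48 without the low-count filter, 43 with reads outside genes as a covariate, 7 without both SOX10 replicate 1 and control replicate 3, 1 after thinning to equal depth, and 6 to 18 when single libraries were left out, with 6 without control replicate 1. The cause was not tested. With the replicate number as a block there were 7. The labels do not say whether numbers shared between groups pair the samples. Deviations of libraries with the same number had correlations of -0.030, -0.033 and -0.14, and those with unlike numbers -0.10 to 0.15. With 3 libraries per group these values cannot settle the pairing. The block called no member.

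The median log2 fold change of antisense genes became 0.13 without the filter and 0.11 with the CPM filter, both over all 32 members, -0.077 after thinning, and -0.12 to 0.032 without single libraries, positive without control replicate 1 or 3. Of the other rules for membership, at least 10 reads and equal weight of both groups left the same 15 tested genes. Their median of -0.19 thus could not differ. The rule of at least 60 reads tested 14 and gave -0.12. The median of sense genes stayed between -0.053 and 0.050.

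Of 305 values of 18 named genes under alternatives, 14 changed direction. None of the 18 genes was called, so these values say nothing about called genes. When single libraries were left out, C17orf76-AS1 ranged over -0.17 to 0.049 (positive without SOX10 or control replicate 1), FGD5-AS1 over -0.11 to 0.17 (negative without SOX10 replicate 3), HNRNPU over -0.051 to 0.037 (positive without replicate 1 of either group), MAGI2 over -0.46 to 0.078 (positive without control replicate 3), NOP14 over -0.23 to 0.064 (positive without control replicate 1) and ZNFX1 over -0.0018 to 0.11 (negative without control replicate 2). HNRNPU was 0.018 without the filter, 0.0029 with the covariate and 0.050 after thinning. MAGI2 was 0.15 without both libraries, 0.045 after thinning and 0.014 as a difference of log2 CPM with a prior count of 2. Depth limits the 17 members below the filter most.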
